A study of Mus musculus with 12 samples.

Results

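The odorant receptor (OR) genes described here are the members numbered Olfr1141 to Olfr1318, which lie on mouse chromosome 2. A gene was taken where a probe set of the array carried its symbol and no other, with symbols of pseudogenes left out and with Olfr1277 and Olfr1313 set aside. Where a gene had several such probe sets, the one with the highest mean over the 12 arrays stood for it. The rule gave 128 genes of 1015 OR genes on the array. All 128 were placed on chromosome 2 by RefSeq, which lists 1 of them, Olfr1174, as a pseudogene. Of the 128, 126 had a mean log2 level above 5 and were tested among 984 such OR genes. The other two, Olfr1164 and Olfr1245, had mean log2 levels of 4.53 and 4.65.

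The arrays measured RNA of the main olfactory epithelium (MOE) after unilateral naris occlusion (UNO), in which the right nostril was sealed by electrocautery 14 days after birth and stayed closed for 3 weeks. The 4 groups were the closed and the open side of H2be-KO mice and the closed and the open side of WT mice, with 3 samples each, taken at 5 weeks of age by the titles and the design (the age tag reads 6 months). In the H2be-KO line the coding sequence of H2be, a histone H2B variant of olfactory neurons, is replaced in every cell by a membrane-bound mCherry reporter. Each sample pooled MOE tissue of the given side from 2 mice, a female and a male, by the design text, while the study's legends give 4 animals. Both sides come from mice that underwent the operation, so the open side is not tissue of an unoperated mouse, and the labels give no strain. Nothing in the labels says whether the open and closed samples of the same number share mice, so p-values measure the spread between these samples.

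Each olfactory sensory neuron (OSN) transcribes a single OR gene, from a single allele, out of a very large family that sits in clusters on many chromosomes. The receptor sets both the odorants a neuron answers to and the place in the olfactory bulb to which its axon grows, and its signal runs through a G protein, adenylyl cyclase and a cyclic nucleotide-gated channel. The tissue level of an OR transcript therefore follows how many neurons chose that receptor, how long they live and how much of it each neuron carries. In RNA of a whole side of the epithelium, fewer neurons of a type and less RNA per neuron cannot be told apart. For some ORs the study used in situ hybridization and reported that their UNO differences reflected how often they were expressed. Closing a nostril removes odorant flow from that side.

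In the RefSeq annotation the members fall into 2 stretches, 96 genes from Olfr1141 to Olfr1274 and 32 from Olfr1275 to Olfr1317, with 119 protein-coding genes and 0 Olfr genes between them. RefSeq's table of start sites (GRCm38.p6) held 112 of the 128 members. For 83 of these the annotated start is the start codon itself, so the bases before it cannot be read as a promoter. For 29 it lies elsewhere, and the 250 bases before it were searched for TAATNA, the core that homeodomain factors such as Lhx2 recognise, on both strands. The letters stood in 25 of the 29 windows (86.2%), against 66.7% of 255 such windows over all Olfr genes and 23.0% of 25193 windows over all genes. Median GC content was 32.0% in the members, 36.0% over Olfr genes and 52.8% over all genes, so a motif of A and T has more chances in OR windows. The windows of the members that have such a start and changed with UNO are shown 5′ to 3′, with each match to TAATNA on either strand in capitals, because they set 3 receptors that fell beside 1 that rose.
Olfr1167 (chr2:88150084-88150333, minus strand): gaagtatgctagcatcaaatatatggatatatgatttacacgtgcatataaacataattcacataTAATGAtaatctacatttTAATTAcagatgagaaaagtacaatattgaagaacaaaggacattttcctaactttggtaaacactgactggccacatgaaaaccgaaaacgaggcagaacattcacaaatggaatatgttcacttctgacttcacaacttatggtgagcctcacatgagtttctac
Olfr1240 (chr2:89440344-89440593, minus strand): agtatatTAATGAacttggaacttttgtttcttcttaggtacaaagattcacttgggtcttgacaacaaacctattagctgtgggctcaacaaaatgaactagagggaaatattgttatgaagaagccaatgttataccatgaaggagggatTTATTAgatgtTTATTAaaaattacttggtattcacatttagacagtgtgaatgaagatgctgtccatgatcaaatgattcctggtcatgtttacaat
Olfr1246 (chr2:89591147-89591396, minus strand): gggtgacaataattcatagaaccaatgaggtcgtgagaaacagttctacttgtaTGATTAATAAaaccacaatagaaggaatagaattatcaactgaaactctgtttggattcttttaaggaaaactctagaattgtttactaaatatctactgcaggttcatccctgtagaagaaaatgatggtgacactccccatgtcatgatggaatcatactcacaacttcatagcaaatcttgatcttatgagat
Olfr1247 (chr2:89610154-89610403, minus strand): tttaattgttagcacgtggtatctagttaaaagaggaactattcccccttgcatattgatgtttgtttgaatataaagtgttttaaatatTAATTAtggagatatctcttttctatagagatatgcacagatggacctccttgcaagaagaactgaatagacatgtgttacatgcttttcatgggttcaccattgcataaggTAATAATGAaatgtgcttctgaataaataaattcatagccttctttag
Olfr1167, Olfr1246 and Olfr1247 fell on the closed side and Olfr1240 rose (values are given with each gene). Matches number 2 in Olfr1167, 3 in Olfr1240, 2 that overlap in Olfr1246 and 3 in Olfr1247, of which 2 overlap. The number of matches does not separate Olfr1240 from the other windows.

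H2be itself (named H2bc21 in current annotation) had log2 levels of 11.46, 11.41 and 11.44 in closed and 11.31, 11.33 and 11.32 in open KO arrays, against 11.68, 11.71 and 11.75 in closed and 11.62, 11.55 and 11.58 in open WT arrays. On either side the KO arrays were all lower than the WT arrays, with KO minus WT at -0.27 on the closed side (limma adjusted p over all probe sets = 0.999) and -0.26 on the open side (adjusted p = 0.641). Where its probes lie relative to the replaced coding sequence is not given in the sources used here, so these values are a weak check of the genotype. Array medians lay between 7.21 and 7.3. Among single arrays, WT closed 3 had the highest members, by a median of 0.19 above their means over the 12 arrays, and KO open 1 the lowest, by -0.12, while over all OR genes these 2 arrays stood at 0.13 and -0.09.

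The first comparison asked which of these receptors changed with closure in mice without H2BE. In H2be-KO mice 8 of the 126 members rose on the closed side (6.35%, against 8.03% of all OR genes) and 7 fell (5.56%, against 3.96% of all OR genes), at a limma p adjusted over the 984 OR genes below 0.05. With p adjusted over all 32615 probe sets, 4 of the members rose and 2 fell (3.86% and 1.42% of all OR genes). With each array centred on its median, 5 members rose and 8 fell, against 62 (6.3%) and 45 (4.57%) of all OR genes. The median log2 change over members was 0.04 and over all OR genes 0.04, while dropping KO open 1 gave 0.01, dropping KO closed 2 gave 0.02, and dropping either KO closed 1 or KO open 2 gave 0.09 over members. In the full set 73 members had a change above 0 and 53 below, against 555 and 429 of the 984 OR genes. All 3 closed arrays lay above all 3 open arrays for 33 members (26.2%, against 20.1% of OR genes) and below them for 18 (14.3%, against 11.8%).

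Olfr1308 fell the most. Its log2 level was 5.55, 5.63 and 5.80 on the closed side of KO mice, against 6.62, 6.72 and 6.51 on their open side. Every closed array was thus below every open one, by 1.94-fold on average (log2 change -0.95 ± 0.11 SE, limma adjusted p over OR genes = 0.00060, 0.0019 over all probe sets). Next came Olfr1251, with 6.26, 5.77 and 6.07 in closed against 6.75, 6.95 and 6.70 in open KO arrays, 1.70-fold lower (log2 change -0.76 ± 0.13 SE, adjusted p = 0.0050). KO closed 2 was its lowest array, and the groups did not overlap. Olfr1253, a near neighbour of Olfr1251, had 6.54, 6.43 and 6.57 in closed against 6.78, 6.86 and 7.15 in open KO arrays (log2 change -0.42 ± 0.11 SE, adjusted p = 0.032). Its closed arrays were again all below its open arrays.

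Olfr1214 varied more among its arrays, with 6.04, 6.58 and 6.91 in closed against 7.18, 7.08 and 7.07 in open KO arrays (log2 change -0.60 ± 0.18 SE, adjusted p = 0.049). KO closed 1 was by far the lowest array, and KO closed 3 came near the open side. Olfr1305 had 7.01, 6.62 and 6.83 in closed and 7.21, 7.42 and 7.36 in open KO arrays (log2 change -0.51 ± 0.13 SE, adjusted p = 0.028). Olfr1167 had 5.87, 6.08 and 5.90 in closed and 6.26, 6.67 and 6.32 in open KO arrays (log2 change -0.47 ± 0.12 SE, adjusted p = 0.030). Closed and open arrays were separate in both of these genes. The last of the 7, Olfr1154, had 6.75, 7.11 and 6.99 in closed and 7.27, 7.46 and 7.43 in open KO arrays (log2 change -0.44 ± 0.11 SE, adjusted p = 0.024).

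The largest rise in KO mice was that of Olfr1221, which had 7.12, 7.10 and 7.18 on the closed side, against 6.53, 6.54 and 6.50 on the open side, 1.53-fold higher (log2 change 0.61 ± 0.11 SE, adjusted p = 0.0051). Olfr1209 followed with 8.85, 8.77 and 8.73 in closed and 8.27, 8.31 and 8.31 in open KO arrays (log2 change 0.49 ± 0.09 SE, adjusted p = 0.0051). In both genes the arrays of a side lay close together, far closer than the sides to each other. Olfr1275 had 8.22, 8.22 and 8.27 in closed and 7.74, 7.82 and 7.77 in open KO arrays (log2 change 0.46 ± 0.09 SE, adjusted p = 0.0065). Olfr1283 had 8.71, 8.73 and 8.68 in closed and 8.34, 8.26 and 8.24 in open KO arrays (log2 change 0.43 ± 0.08 SE, adjusted p = 0.0063). These 2 genes belong to the second stretch, and neither had overlapping arrays. Olfr1229 rose by 0.39 (closed 8.91, 9.08 and 8.89 against open 8.57, 8.58 and 8.58 in KO arrays, adjusted p = 0.011), and Olfr1286 by 0.35 (closed 8.38, 8.19 and 8.23 against open 7.95, 7.88 and 7.94 in KO arrays, adjusted p = 0.030). The remaining 2 of the 8 were Olfr1295 and Olfr1222, with log2 changes of 0.34 and 0.32 (adjusted p = 0.039 and 0.048).

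The KO calls of Olfr1209, Olfr1221, Olfr1251, Olfr1275, Olfr1283 and Olfr1308 were kept whichever of the 12 arrays was left out. The number of members called went from 15 to 8 when KO open 2 or 3, or KO closed 2, was dropped, and to 9 when KO closed 1 or 3 was. These counts include any member newly called. Olfr1214 lost its call without any array but KO closed 3 (adjusted p up to 0.140), Olfr1286 without any KO array (up to 0.105), and Olfr1253 without any KO array other than the first open one (up to 0.109). Dropping KO open 2 or 3 ended the calls of Olfr1167, Olfr1305 and Olfr1154, as did dropping KO closed 1 or 3 for Olfr1167, KO closed 2 or 3 for Olfr1305 and KO closed 1 for Olfr1154 (adjusted p up to 0.0981, 0.10 and 0.0747). Dropping KO closed 2 ended that of Olfr1229 (adjusted p = 0.0519). Olfr1222 lost its KO call with any array gone other than WT open 3 (up to 0.141), and Olfr1295 with any of 7 gone, namely KO open 1 or 3, each KO closed array, WT open 1 and WT closed 2 (up to 0.159).

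The same comparison in WT mice asked how closure alone moved these receptors. In WT mice 16 members rose on the closed side (12.7%, against 9.15% of all OR genes) and 5 fell (3.97%, against 3.86% of all OR genes). With p adjusted over all probe sets 7 of them rose and 0 fell (3.76% and 1.12% of all OR genes), while at an unadjusted limma p under 0.05 there were 27 members higher and 15 lower (16.6% and 9.04% of all OR genes). The median log2 change was 0.10 over members, 0.01 over all OR genes and -0.08 over the 96 tested genes Olfr987 to Olfr1140 that precede them, of which 2 rose and 4 fell. Changes above 0 were seen in 84 members and below 0 in 42, against 511 and 473 of the 984 OR genes. All closed arrays lay above all open arrays for 30 members (23.8%, against 17.6% of OR genes) and below them for 14 (11.1%, against 10.4%). Much of the median came from a single array. When WT closed 3, where members were highest, was left out, the median over members was 0.03 and that over all OR genes was -0.02. Then 70 members were above 0, against 463 of the 984 OR genes.

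Olfr1288 rose the most in WT mice, with 7.0, 6.86 and 7.05 on the closed side against 6.42, 6.39 and 6.43 on the open side, 1.47-fold higher (log2 change 0.56 ± 0.09 SE, adjusted p = 0.0021). Olfr1276 had 8.16, 8.16 and 8.39 in closed and 7.49, 7.84 and 7.72 in open WT arrays (log2 change 0.55 ± 0.11 SE, adjusted p = 0.0067). The open arrays of Olfr1288 were nearly alike, those of Olfr1276 less so, with WT open 1 the lowest. Olfr1275, adjacent to Olfr1276 among the members, had 8.26, 8.32 and 8.35 in closed and 7.72, 7.97 and 7.68 in open WT arrays (log2 change 0.52 ± 0.09 SE, adjusted p = 0.0036). Further along the second stretch Olfr1286 rose by 0.47 (closed 8.16, 8.29 and 8.43 against open 7.84, 7.78 and 7.85 in WT arrays, adjusted p = 0.0067), and Olfr1283 by 0.43 (closed 8.60, 8.61 and 8.74 against open 8.12, 8.25 and 8.30 in WT arrays, adjusted p = 0.0067). Closed and open arrays did not overlap for any of these 5 genes. Olfr1289 had 8.32, 8.52 and 8.65 in closed and 8.06, 8.20 and 7.85 in open WT arrays (log2 change 0.46 ± 0.13 SE, adjusted p = 0.039), and its second probe set, with a mean log2 level of 7.39, gave 0.34 in WT and 0.33 in KO mice.

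In the first stretch, Olfr1221 had 7.38, 7.07 and 7.35 in closed and 6.84, 6.53 and 6.82 in open WT arrays (log2 change 0.54 ± 0.11 SE, adjusted p = 0.0084). The number 2 array was the lowest on both sides. Olfr1209 had 8.76, 8.85 and 8.88 in closed and 8.46, 8.31 and 8.20 in open WT arrays (log2 change 0.51 ± 0.09 SE, adjusted p = 0.0036). Olfr1160 had 6.38, 6.32 and 6.62 in closed and 6.02, 5.86 and 5.96 in open WT arrays (log2 change 0.49 ± 0.11 SE, adjusted p = 0.011). Olfr1160 was the sole member below Olfr1200 that was called higher in WT mice. Olfr1229 had 9.0, 9.05 and 9.14 in closed and 8.71, 8.67 and 8.73 in open WT arrays (log2 change 0.35 ± 0.08 SE, adjusted p = 0.016). Olfr1240, whose window is shown above, had 9.14, 9.14 and 9.20 in closed and 8.82, 8.97 and 8.88 in open WT arrays (log2 change 0.27 ± 0.08 SE, adjusted p = 0.045), and in KO mice its change of 0.22 did not pass (adjusted p = 0.095). Its 3 closed arrays lay above its 3 open arrays in each genotype. Olfr1264, the member with the brightest probe set (mean log2 level 10.46), had 10.50, 10.64 and 10.64 in closed and 10.26, 10.36 and 10.26 in open WT arrays (log2 change 0.30 ± 0.08 SE, adjusted p = 0.029). Its sides did not overlap, as was also so in KO mice (10.55, 10.63 and 10.60 in closed against 10.32, 10.40 and 10.35 in open arrays), where its change of 0.23 did not pass (adjusted p = 0.076). In KO mice Olfr1276 had 8.13, 8.19 and 8.27 in closed and 7.77, 7.92 and 7.82 in open arrays, a change of 0.36 with separate sides that narrowly missed the threshold (adjusted p = 0.053). Olfr1160 had 6.36, 6.42 and 6.40 in closed and 6.14, 6.22 and 6.43 in open KO arrays, whose sides overlapped (log2 change 0.13, adjusted p = 0.477).

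The 5 members that fell in WT mice were Olfr1251, Olfr1246, Olfr1308, Olfr1167 and Olfr1247. Olfr1251 had 6.21, 5.95 and 6.23 in closed and 6.68, 6.85 and 6.79 in open WT arrays, 1.56-fold lower (log2 change -0.64 ± 0.13 SE, adjusted p = 0.0088). Olfr1246 had 6.25, 6.52 and 6.77 in closed and 7.14, 7.12 and 7.17 in open WT arrays (log2 change -0.63 ± 0.16 SE, adjusted p = 0.023). Its open arrays were nearly alike while its closed arrays were spread widely, with WT closed 1 the lowest. In KO mice the closed and open arrays of Olfr1246 overlapped (6.62, 6.89 and 6.56 against 7.16, 6.64 and 6.75), with a log2 change of -0.16 (adjusted p = 0.562).

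Olfr1308 had 5.96, 5.99 and 6.10 in closed and 6.64, 6.29 and 6.56 in open WT arrays (log2 change -0.48 ± 0.11 SE, adjusted p = 0.017). Olfr1167 had 5.86, 6.08 and 6.06 in closed and 6.60, 6.35 and 6.46 in open WT arrays (log2 change -0.47 ± 0.12 SE, adjusted p = 0.029). Neither had overlapping sides. Olfr1247 had 8.10, 8.15 and 8.11 in closed and 8.67, 8.61 and 8.31 in open WT arrays (log2 change -0.41 ± 0.11 SE, adjusted p = 0.033), and in KO mice 7.97, 8.14 and 8.24 in closed and 8.42, 8.57 and 8.40 in open arrays, where its change of -0.35 did not pass (adjusted p = 0.067). Olfr1247 had the brightest probe set of the 5. The calls of Olfr1160, Olfr1209, Olfr1221, Olfr1251, Olfr1275, Olfr1276, Olfr1283, Olfr1286, Olfr1288 and Olfr1295 in WT mice were kept whichever array was left out. The 21 calls became 12 when WT open 1 or 3 was dropped, 11 when WT closed 2 was and 13 when WT closed 3 was. Dropping WT open 1, or WT closed 1 or 2, ended the WT calls of Olfr1167, Olfr1246, Olfr1247 and Olfr1308 (adjusted p up to 0.103, 0.073, 0.123 and 0.070). So did dropping WT open 3 for Olfr1167, Olfr1246 and Olfr1308, WT open 2 for Olfr1246 and Olfr1247, and WT closed 3 for Olfr1167 and Olfr1247. Among the rises, Olfr1229 lost its WT call when WT closed 3 was dropped (0.0551), Olfr1264 when WT open 1 or 3, or WT closed 2 or 3, was (up to 0.0959), Olfr1240 with any array gone other than WT open 2 (up to 0.146), and Olfr1289 with any of 8 arrays gone, namely KO open 2, each KO closed array, WT open 1 or 3, and WT closed 2 or 3 (up to 0.136).

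**Figure D1:**
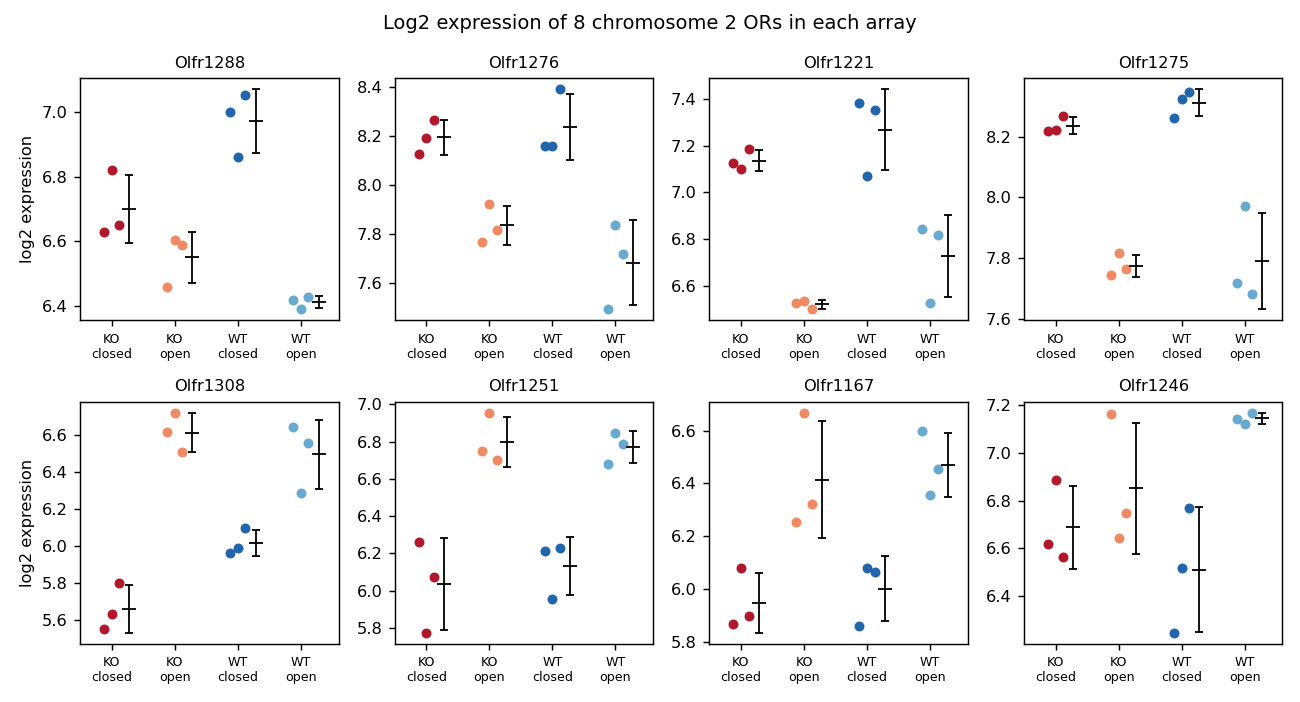
Log2 expression (vertical axis, a range of its own in each panel) of 8 ORs in each array of KO closed, KO open, WT closed and WT open. Each point is an array, with a bar for the mean and SD of its group (n = 3); the upper 4 genes are higher on the closed side, Olfr1288 by 0.56 in WT and 0.15 in KO mice, and Olfr1308 in the lower row is lower by 0.95 on the log2 scale in KO mice.

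Both genotypes moved many of the same members. The changes themselves come from arrays that the genotypes do not share, but the calls do not. The fit took each gene's variance over all arrays, so its SE is the same in both genotypes (0.13 for Olfr1251). A gene of low variance is thus favoured in both lists of calls, and the overlap of the lists is not independent agreement. All 8 members called higher in KO mice were also called higher in WT mice (100% of the KO calls and 50% of the WT calls). Of those called lower, 3 were called in both, Olfr1308, Olfr1251 and Olfr1167 (42.9% of the 7 KO calls and 60.0% of the 5 WT calls), and 0 were called in opposite directions. Over all OR genes 58 were called higher in both (73.4% of the KO calls and 64.4% of the WT calls) and 18 lower (46.2% and 47.4%). The change had the same sign in both genotypes for 103 of the 126 members, and for 754 of all 984 OR genes. Pearson r was 0.77 across members and likewise 0.77 across all OR genes. Genes are not independent replicates, and related receptors may share probe sequence.

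**Figure D2:**
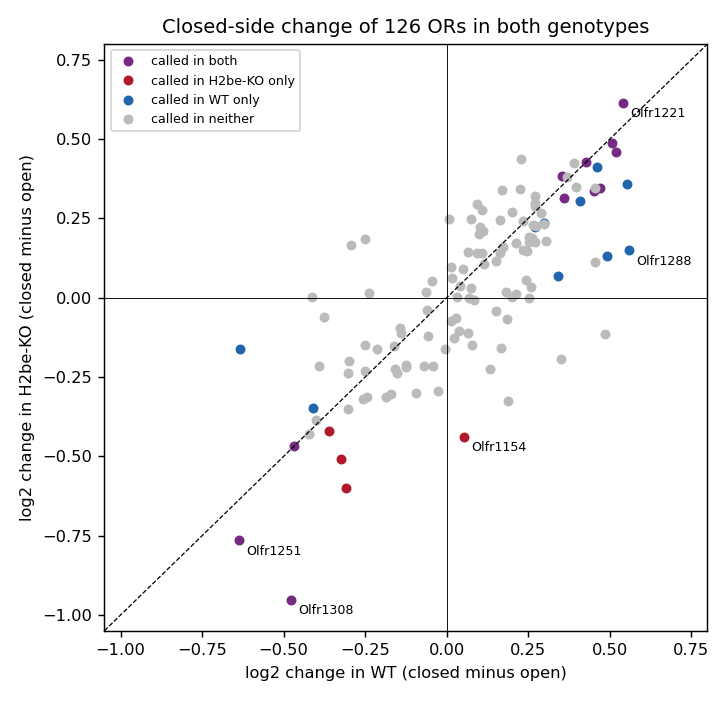
Log2 change (closed minus open side) of each of 126 ORs, with H2be-KO mice on the vertical and WT mice on the horizontal axis and a dashed line at equal change. Colours mark members called in both genotypes, in one of them or in neither; Olfr1308 at -0.95 in KO mice lies below the line and Olfr1288 at 0.15 in KO mice well below its WT change of 0.56.

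With both genotypes averaged, 23 members rose (18.3%, against 16.8% of all OR genes) and 13 fell (10.3%, against 9.45% of all OR genes). Adjusted over all probe sets, 15 of the members rose and 8 fell (10.1% and 4.88% of all OR genes). The median change was 0.09, against 0.02 over all OR genes, and dropping either KO closed 2 or WT closed 3 gave 0.04. Olfr1221 again rose the most (0.58 ± 0.08 SE, adjusted p = 0.00028) and Olfr1308 fell the most (-0.72 ± 0.08 SE, adjusted p = 8.2e-05), 1.64-fold lower. Among members whose closed and open arrays were separate in each genotype, the 6 largest changes in each direction were those of Olfr1221, Olfr1209, Olfr1275, Olfr1276, Olfr1289 and Olfr1283 upward, and Olfr1308, Olfr1251, Olfr1167, Olfr1214, Olfr1253 and Olfr1247 downward, and each of these 12 calls was kept whichever array was left out. Members called higher had brighter probe sets (median of the mean log2 levels 8.40, from 6.26 to 10.46) than members called lower (7.02, from 6.20 to 8.52) and those not called (7.66). The level of a probe set also depends on its probes, so these medians do not rank the receptors by expression.

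The second question was whether loss of H2BE changed the members themselves. On the closed side 0 of the 126 members passed between KO and WT mice (0% of all OR genes). An unadjusted limma p under 0.05 was seen in 7, all lower in KO mice (6.71% of all OR genes were under 0.05, 39 lower and 27 higher). They were Olfr1308, Olfr1154, Olfr1249, Olfr1288, Olfr1208, Olfr1238 and Olfr1272, named because they are all that reached it, with KO minus WT between -0.36 and -0.25 and adjusted p of 0.675 to 0.722. The median over members was -0.06, against -0.01 over all OR genes, and 82 members lay below 0, against 523 of the 984 OR genes. Leaving out WT closed 3 gave a median of 0.0007 with 63 members below 0, against 425 of the OR genes. Leaving out KO closed 1 gave a median over members of -0.01. On the open side 0 members passed (0% of all OR genes) and 7 had an unadjusted p under 0.05, 4 higher and 3 lower in KO mice (6.91% of all OR genes, 24 higher and 44 lower), with a median over members of -0.0013. Those higher were Olfr1158, Olfr1160, Olfr1206 and Olfr1256, and those lower Olfr1310, Olfr1176 and Olfr1179. The median 95% half-width of a single difference was 0.29, so smaller differences in either direction could go uncalled. Larger ones could too, since calls rest on the adjusted p. Olfr1310 on the open side, at -0.58, was not called (limma adjusted p = 0.556).

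The genotypes were then compared in their response to closure. The difference between the KO and the WT change passed for 0 members (0% of all OR genes). At an unadjusted p under 0.05 there were 5 (3.35% of all OR genes), and in all 5 the KO change was the lower one. Over all OR genes the KO change was the higher one in 17 and the lower one in 16. WT closed 3, where members were highest, enters every WT change, and its part in these differences was not tested. The smallest p was that of Olfr1154, which in KO mice fell as given above and in WT mice had 7.18, 7.38 and 7.32 on the closed side and 7.2, 7.23 and 7.29 on the open side. Closed and open arrays overlapped in WT mice and did not in KO mice. The KO change of -0.44 minus the WT change of 0.05 was -0.49 (95% interval -0.82 to -0.16, limma adjusted p = 0.996, 0.0073 unadjusted). Olfr1288 had 6.63, 6.82 and 6.65 in closed and 6.46, 6.60 and 6.59 in open KO arrays, a change of 0.15 that is smaller than its WT change by 0.41 (difference -0.41, 95% interval -0.69 to -0.13, adjusted p = 0.996). Its KO arrays were all below its WT arrays on the closed side and all slightly above them on the open side. Within KO mice its closed arrays also all lay above its open arrays. The other three were Olfr1158 (-0.54), Olfr1308 (-0.48) and Olfr1160 (-0.36). The median 95% half-width of this difference was 0.41 over members, so smaller differences between the genotypes could be missed. Larger ones could be missed as well, since calls rest on the adjusted p, as Olfr1158 at -0.54 shows.

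Between members next to each other along the chromosome the changes had the same sign in 68 of 124 pairs in KO mice and 81 in WT mice, with r = 0.18 in KO and 0.28 in WT mice. The median difference between adjacent members was 0.23 in KO and 0.20 in WT mice, and over all pairs of members 0.26 in each genotype. These values are a description, since neighbours can share probe sequence. The bands that follow were drawn after the values had been seen, so that the likeness within a band was fixed by its edges, and their counts carry no test. Over all 984 OR genes, 8.03% were called higher and 3.96% lower in KO mice, 9.15% and 3.86% in WT mice, and 16.8% and 9.45% on average. The change was above 0 in 555 of them in KO mice and in 511 in WT mice. From Olfr1275 to Olfr1299, 15 of 18 members had a change above 0 in KO mice (median 0.23, 4 called higher and 0 lower) and 16 of 18 in WT mice (median 0.25, 7 called higher and 0 lower). From Olfr1254 to Olfr1265 the change was above 0 in 11 of 12 members in KO mice (median 0.22) and in 12 of 12 in WT mice (median 0.24). Olfr1258 was the exception in KO mice. On the average of the genotypes 6 of these 12 were called higher and 0 lower. Directly before them, from Olfr1246 to Olfr1253, the change was below 0 in 6 of 7 members in KO mice (median -0.32, 2 called lower) and in 5 of 7 in WT mice (median -0.36, 3 called lower).

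From Olfr1269 to Olfr1274, 1 of 5 members was above 0 in KO mice (median -0.16) and 0 of 5 in WT mice (median -0.14), with 0 of the 5 passing in either genotype. From Olfr1200 to Olfr1244, 24 of 35 members were above 0 in KO mice (4 called higher and 1 lower) and 29 of 35 in WT mice (7 called higher and 0 lower). From Olfr1141 to Olfr1199, 15 of 35 members were above 0 in KO mice (median -0.06) and 17 of 35 in WT mice (median -0.06). The last band, Olfr1301 to Olfr1317, held 2 members called lower in KO mice, Olfr1305 and Olfr1308, of which Olfr1308 was also called in WT mice, and 0 called higher in either genotype. Median probe set levels of the bands were 7.22, 8.15, 6.66, 8.62, 8.34, 8.01 and 6.71 in their order along the chromosome. The WT medians with WT closed 3 left out were 0.11 for Olfr1275 to Olfr1299 (13 of 18 above 0), 0.18 for Olfr1254 to Olfr1265 (11 of 12) and -0.40 for Olfr1246 to Olfr1253.

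**Figure D3:**
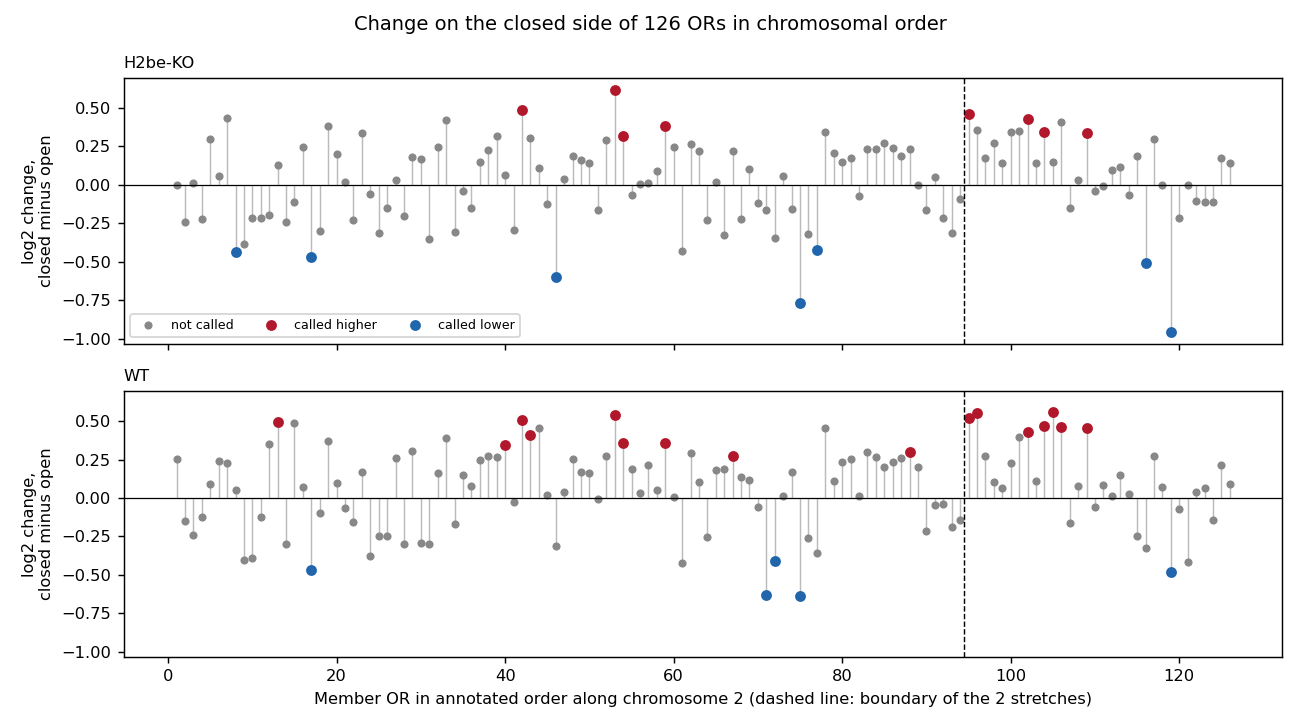
Log2 change (vertical axis, closed minus open side) of the 126 tested members in their annotated order along chromosome 2, for H2be-KO mice above and WT mice below. Red and blue points are members called higher and lower. To the right of the dashed line, where the second stretch begins, 4 of 32 members rise and 2 fall in KO mice. In WT mice 7 of the 32 rise and 1 falls. Over all OR genes 8.03% rise and 3.96% fall in KO mice, and 9.15% and 3.86% in WT mice.

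Members with closely related sequence were not always called together. Over the 250 bases before the annotated start, 8 pairs of members among 6216 were at least 80% identical. In the genes that follow the start is the start codon, so this is likeness of the copies and not of a known promoter. All 8 pairs are given, with the values of their members known when the pairs were looked for. Olfr1251 and Olfr1253 were 92.4% identical there and both fell on average (-0.70 and -0.39). Olfr1249, 90% identical to Olfr1251 and 88.0% to Olfr1253, had 6.33, 6.16 and 6.27 in closed and 6.25, 6.52 and 6.45 in open KO arrays, and 6.61, 6.56 and 6.57 in closed and 6.32, 6.65 and 6.28 in open WT arrays. Its sides overlapped in both genotypes, with changes of -0.16 in KO and 0.17 in WT mice (adjusted p = 0.412 and 0.375).

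Olfr1168 and Olfr1173 were 98.8% identical before the start. Olfr1173 had 6.92, 7.04 and 7.33 in closed and 6.27, 7.06 and 6.82 in open KO arrays, and 7.28, 7.28 and 7.21 in closed and 6.70, 6.93 and 7.03 in open WT arrays. Olfr1168 had 7.31, 7.41 and 7.59 in closed and 7.68, 7.83 and 7.70 in open KO arrays, and 7.68, 7.63 and 7.39 in closed and 7.65, 7.49 and 7.85 in open WT arrays. Olfr1173 was thus higher on the closed side, with overlap in KO mice alone, and Olfr1168 lower, with overlap in WT mice alone. On average Olfr1173 rose by 0.37 (adjusted p = 0.0498) and lost this call without any of 10 of the 12 arrays (adjusted p up to 0.110), while Olfr1168 changed by -0.20 (adjusted p = 0.112). The difference between these 2 genes was not tested. Olfr1262 and Olfr1263, 84.8% identical, had average changes of 0.24 and 0.22, and only the first passed (adjusted p = 0.045). Olfr1271 and Olfr1272, 89.2% identical, had -0.13 and -0.25, of which the second passed (adjusted p = 0.034). The calls of Olfr1262 and Olfr1272 were lost without any of 10 and any of 8 arrays (adjusted p up to 0.101 and 0.0749). Olfr1154 and Olfr1158, 82.4% identical, had changes of -0.44 and -0.19 in KO and 0.05 and 0.35 in WT mice, of which the first passed in KO mice. Olfr1265 and Olfr1269, 81.6% identical, had average changes of 0.10 and -0.19, and neither passed.

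**Figure D4:**
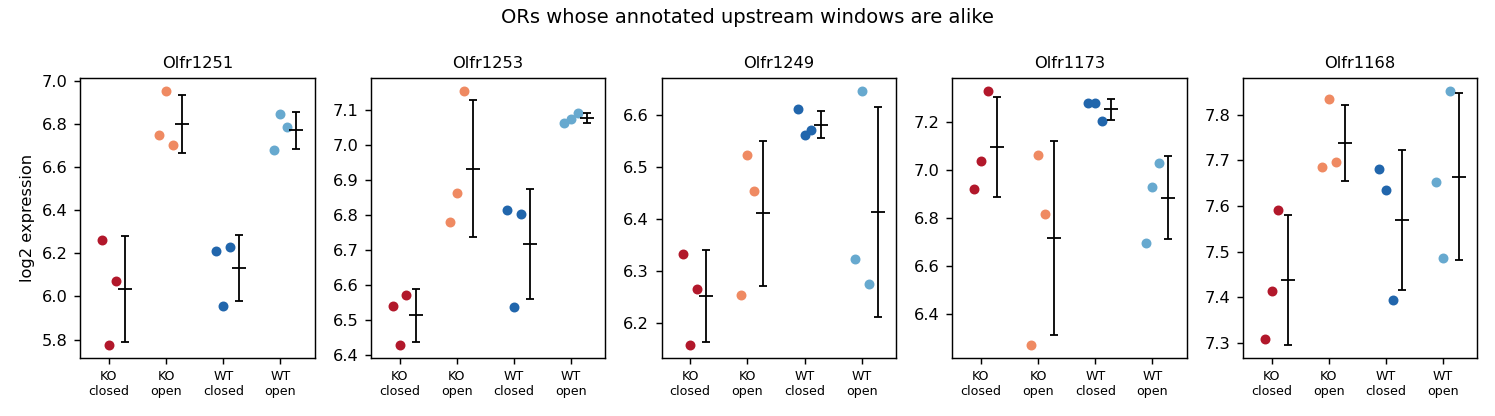
Log2 expression (vertical axis, a range of its own in each panel) of 5 ORs in each array of KO closed, KO open, WT closed and WT open, with the mean and SD (n = 3). Before the annotated start Olfr1251, Olfr1253 and Olfr1249 are 88.0% to 92.4% identical to each other, and Olfr1173 and Olfr1168 are 98.8% identical. Olfr1251 and Olfr1253 are lower on the closed side in both genotypes while Olfr1249 shows overlapping sides.

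Several probe sets of the array read more than 1 OR gene and were kept out of the counts. The one shared by Olfr1166, Olfr1167 and Olfr1170 had 7.36, 7.19 and 7.24 in closed and 7.79, 8.02 and 7.78 in open KO arrays, and 7.11, 7.12 and 7.26 in closed and 7.63, 7.67 and 7.98 in open WT arrays. It fell in both genotypes with no overlap, by -0.60 in KO and -0.59 in WT mice (limma adjusted p over all probe sets = 0.030 and 0.038), as did Olfr1167 on its own probe set. The probe set shared by 6 genes from Olfr1280 to Olfr1287 had log2 changes of 0.17 in KO and 0.26 in WT mice and did not pass, while Olfr1283 and Olfr1286, which it also covers, were called higher in both genotypes on probe sets of their own. The one shared by Olfr1248, Olfr1250 and Olfr1252 had changes of -0.39 in KO and -0.26 in WT mice (adjusted p = 0.253 and 0.566).

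Genes around the receptor moved too. Of 17 genes of odor transduction, the pathway the receptors feed, 4 rose in KO mice and 2 in WT mice (limma, adjusted over all probe sets). With both genotypes averaged 8 rose, and 0 fell in any of these comparisons. At an unadjusted limma p under 0.05, 9 were higher and 0 lower in KO mice, and 12 higher and 1 lower in WT mice. Over all 32615 probe sets limma called 230 higher and 111 lower in KO mice, and 155 higher and 124 lower in WT mice. On the average of the genotypes it called 543 higher and 402 lower. At these shares a list of 20 or 52 genes can hold 0 calls without standing out. Pde4a, a cAMP phosphodiesterase, had log2 changes of 0.66 in KO and 0.48 in WT mice (adjusted p = 0.0027 and 0.023), and Cnga4, a subunit of the olfactory channel, had 0.42 in KO and 0.37 in WT mice (adjusted p = 0.025 and 0.049). Of 20 genes of OR choice and trafficking, limma called 0 in either genotype, with 4 higher in KO and 2 higher in WT mice at an unadjusted p under 0.05. On the average of the genotypes it called 2 of these 20 higher and 0 lower. Of 52 measured markers of 11 other cell types, from basal to immune cells, it called 0 in either genotype as well. At an unadjusted p under 0.05 there were 7 in KO and 6 in WT mice. On average it called 1 of the 6 measured markers of neuronal progenitors lower. The 7 markers of respiratory ciliated cells, also among the 52, had a median change of 0.16 in KO and 0.21 in WT mice. Their mean level lay between 8.79 and 8.89 in closed and between 8.64 and 8.82 in open KO arrays, which overlapped, and between 8.81 and 9.02 in closed and between 8.64 and 8.78 in open WT arrays, which did not. All markers of mature OSNs but Rtp1 are also among the odor transduction genes, and Rtp1 is among those of OR choice and trafficking. The mature OSN counts thus repeat genes already counted above. Of 10 markers of mature OSNs 3 rose in KO mice, 1 in WT mice and 8 on average (8 in KO and 9 in WT mice were higher at an unadjusted p under 0.05), with a median change of 0.31 in KO and 0.26 in WT mice. Their mean level lay between 11.51 and 11.53 in closed and between 11.18 and 11.28 in open KO arrays, and between 11.43 and 11.52 in closed and between 11.19 and 11.22 in open WT arrays. Of 12 markers of immature OSNs 1 fell in each genotype, Nhlh2 in KO mice and Gng8 in WT mice, and 8 fell on average (8 in KO and 9 in WT mice were lower at an unadjusted p under 0.05), with median changes of -0.27 in KO and -0.28 in WT mice. Their mean level lay between 9.84 and 9.93 in closed and between 10.07 and 10.16 in open KO arrays, and between 9.82 and 9.94 in closed and between 10.12 and 10.13 in open WT arrays. The sides thus differed in both OSN marker sets by about as much as many members did, and the part of these marker shifts in the members' changes was not tested.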

How the data were processed

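The authors normalized the 12 Affymetrix Mouse Gene ST arrays by sketch-quantile, used IterPLIER summaries from Affymetrix's Expression Console, and deposited 1 log2 value per probe set and array (35556 probe sets, 0 missing). Such values carry no read depth, and precision depends on how many arrays there are and on the spread of each probe set. In the WT side comparison the SE was 0.08 for Olfr1264 and 0.59 for Olfr1188. The platform annotation gave 1 symbol to 21789 probe sets, several to 1621 and none to 12146. After 2941 probe sets whose mean was not above 5 had been set aside, 1 mean per group was fitted to the other 32615 with limma 3.58.1 (lmFit and eBayes, R 4.3.3, median 11.5 degrees of freedom). Tests were two-sided. Following the study's methods, p-values were adjusted by Benjamini-Hochberg over the 984 OR genes, with a threshold of 0.05, and also over all probe sets. The genes to name were the 6 largest rises and falls with non-overlapping arrays in each side comparison (4 in the KO against WT comparisons), the brightest and dimmest member, those nearest to a genotype difference, and called genes of 15 lists. Members and lists were chosen with earlier results of these data known. Olfr1222, Olfr1295, Olfr1240, the related pairs, the bands and genes with an unadjusted p under 0.05 were added after their values were seen. Upstream windows came from RefSeq (GRCm38.p6) and were aligned with Biopython 1.88, and 16 members had none. Receptor protein sequences were not used here. Sample numbers were not taken to pair the sides: over 6 pairs their deviations correlated from -0.01 to 0.23. The fit was also run on simulated data, whose outcome is not given here.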

Additional observations from a re-analysis of the deposited data

How the results depend on the processing

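No call of a member changed direction under any alternative tried, while thresholds mattered. Of 72 calls of members over the 3 side comparisons, adjustment over all probe sets ended 36 and the fit of only the arrays compared ended 23 of 36. The KO count of 15 members became 6 over all probe sets, 24 with array weights and 8 with only the KO arrays. The WT count of 21 became 7 over all probe sets and 5 with only the WT arrays, and the average count of 36 became 23 over all probe sets. Leaving out 1 array gave 8 to 15 members in KO mice, 11 to 21 in WT mice and 30 to 38 on average. Median changes ranged from 0.01 to 0.09 in KO mice, 0.03 to 0.15 in WT mice and 0.04 to 0.11 on average when 1 array was left out. With same-numbered samples as a replicate block the counts were 12 in KO mice, 21 in WT mice and 43 on average, 10 of 72 calls were lost, and only 3 of 6 open arrays correlated best with their own number. KO calls numbered 8 higher and 7 lower, 5 and 8 with median centring, and 7 and 8 with quantile normalization. The KO minus WT median on the open side, -0.0013, was 0.046 with quantile normalization and 0.0496 with median centring. Between KO and WT mice, and for the genotype difference, 0 members passed under each alternative. The cause of these shifts was not tested. Adjacent receptors may share probe sequence, and 3 arrays per group leave half-widths of 0.29.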
